A study of Mus musculus with 15 samples.

Results

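MHC class I antigen presentation was followed through 9 of the 53379 genes in the table of normalized read counts, chosen by symbol. They were the heavy chains H2-K1 and H2-D1, the light chain B2m, the peptide transporter subunits Tap1 and Tap2, the loading chaperone Tapbp (tapasin), the immunoproteasome subunits Psmb8 and Psmb9, and the transactivator Nlrc5. In this pathway, proteasomes cut cytosolic proteins into peptides, the TAP transporter carries the peptides into the endoplasmic reticulum, and tapasin bridges the transporter and empty class I molecules until a peptide is bound. Heavy chain, β2-microglobulin and peptide then travel to the cell surface, where CD8 T cells and NK cells read them. Interferons raise the transcription of these genes through IRF1 and NLRC5, and NF-κB acts on the heavy chain promoters as well.

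The cells were hematopoietic cells from the fetal livers of mouse embryos with floxed Cebpa and Cebpb alleles (Cebpa fl/fl/Cebpb fl/fl), transformed with a retrovirus encoding the leukemia fusion MLL-ENL and grown with IL-3 at 10 ng/ml. The WTFL cells, labelled wild-type, keep both C/EBP genes. The dKO cells lost Cebpa and Cebpb after treatment with the cell-permeable recombinase TAT-Cre and carry GFP, and the dKO-LAP* cells carry GFP together with LAP*, the longest isoform of C/EBPβ, here from rat. WTFL and dKO cells of clones C1 and C2 and dKO-LAP* cells of clone C1 were compared, with 3 libraries in each of the 5 groups. GFP is not named in the labels of WTFL cells, so the vector and the genotype cannot be told apart. Each dKO line grew from 1 colony that survived Cre treatment, and the 3 RNA samples of a line were collected at different times, so p-values measure the spread between samplings of 1 line. Mouse, parental clone and subclone cannot be told apart in a difference between C1 and C2.

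Reads on genes ranged from 9212237 to 13613500 per library. Cebpa and Cebpb were at 0 in all dKO libraries of both clones, and in dKO-LAP* libraries the Cebpb row held 2537.5 to 4216 normalized reads, in which rat and mouse transcripts were not separated. All 8 myeloid progenitor markers (Ptprc, Kit, Itgam, Fcgr3, Mpo, Hoxa9, Meis1 and Spi1) were detected in every group, and 6 lymphoid, erythroid and hepatocyte markers together held at most 167 normalized reads in a library. WTFL replicate 3 of clone C1 stood apart from its group, with a chi-square per degree of freedom of 24.6 and 33.7 against the other WTFL libraries of C1, where all other pairs within a group gave 5.36 to 20.4. All 9 class I genes were lower in this library than the mean of replicates 1 and 2, at a median ratio of 0.502 (range 0.258 to 0.630), against 0.997 over the 12673 genes tested. Fitted changes of the 9 genes against these WTFL cells are given with and without it, and counts of other lists where they moved by over 1.5 times. Read ratios of Nlrc5 and correlations include it.

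On mm10, in the GENCODE vM21 annotation, 7 of the 9 genes lie in the MHC on chromosome 17. Psmb9 (chr17:34181987-34187764, minus strand), Tap1 (chr17:34187553-34197225, plus), Psmb8 (chr17:34197721-34201454, plus) and Tap2 (chr17:34203527-34216321, plus) lie side by side in this order, with Tapbp (chr17:33915899-33929292, plus) and H2-K1 (chr17:33996017-34000347, minus) on one side and H2-D1 (chr17:35262730-35267499, plus) on the other. B2m (chr2:122147686-122153083, plus) and Nlrc5 (chr8:94434356-94527272, plus) lie outside the MHC. All 9 are protein-coding. Tap1 and Psmb9 share 212 exonic bases on opposite strands, and 24.9% of the exonic bases of Tapbp lie under the antisense gene Gm19412, 14.73% of those of Psmb8 under the antisense gene Gm20496 and 14.1% of those of Tap2 under Gm15821. The library kit was stranded and the strand setting of the read counting is not given in the sources used here, so reads of such overlaps are uncertain. Among all runs of 76 bases, the read length, in their transcripts, 2.96% of those of H2-K1 and 5.40% of those of H2-D1 also occur in other genes, mostly other class I heavy chains, against 0.03% for Nlrc5 and none for B2m. For Tapbp, Psmb8 and Tap2 the shares were 18.4%, 9.9% and 8.14%, mostly with the overlapping genes.

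The promoters of the class I genes are shown so that the elements each holds can be read beside its changes. RefSeq windows of the 250 bases before the start site (GRCm38.p6, the mm10 assembly) were at hand for 7 of the 9 genes, and not listed for Tap2 and Nlrc5. Capitals mark the motifs searched on both strands: the NF-κB consensus, the IRF element core AANNGAAA, the CRE-type half-site TGACG and the Y box CCAAT. The windows are H2-K1 at chr17:34000348-34000597 on the minus strand, H2-D1 at chr17:35262844-35263093 on the plus strand, B2m at chr2:122147437-122147686 on the plus strand and Tap1 at chr17:34187306-34187555 on the plus strand, each written 5′ to 3′ along its gene.
H2-K1: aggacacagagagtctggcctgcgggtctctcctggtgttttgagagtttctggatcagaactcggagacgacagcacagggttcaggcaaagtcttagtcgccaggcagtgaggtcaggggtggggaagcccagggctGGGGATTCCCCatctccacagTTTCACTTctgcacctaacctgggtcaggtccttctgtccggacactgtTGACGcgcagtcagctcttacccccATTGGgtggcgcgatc
H2-D1: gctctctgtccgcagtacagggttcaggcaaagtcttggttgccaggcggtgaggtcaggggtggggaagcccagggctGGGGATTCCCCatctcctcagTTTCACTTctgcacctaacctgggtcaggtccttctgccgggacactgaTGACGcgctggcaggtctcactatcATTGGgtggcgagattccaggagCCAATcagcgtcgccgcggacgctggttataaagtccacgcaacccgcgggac
B2m: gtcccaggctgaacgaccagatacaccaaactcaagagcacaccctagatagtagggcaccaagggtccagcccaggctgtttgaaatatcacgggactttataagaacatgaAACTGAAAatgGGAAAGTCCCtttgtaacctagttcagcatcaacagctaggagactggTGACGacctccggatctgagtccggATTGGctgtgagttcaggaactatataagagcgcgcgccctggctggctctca
Tap1: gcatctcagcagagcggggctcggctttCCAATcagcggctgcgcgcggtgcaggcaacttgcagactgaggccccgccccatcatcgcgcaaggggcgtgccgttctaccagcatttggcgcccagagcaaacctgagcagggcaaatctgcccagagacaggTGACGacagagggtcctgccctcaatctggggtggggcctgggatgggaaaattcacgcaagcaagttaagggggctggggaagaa

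An NF-κB consensus stood 111 bases before the RefSeq start of H2-K1, 171 before that of H2-D1 and 126 before that of B2m. In both heavy chain promoters it matched in overlapping frames, and 7.25% of the 32851 promoter windows of the genome held it. An IRF core, a CRE-type half-site and a Y box followed each other in that order in H2-K1, H2-D1 and B2m, and H2-D1 held a further Y box. These motifs are common, in 21.3%, 17.8% and 33.8% of all windows. Tap1 and Psmb9 held the half-site and the Y box without the IRF core or the NF-κB consensus, and their windows cover nearly the same bases read from opposite strands. Tapbp held Y boxes only, and Psmb8 held none of the 4 motifs. TTGCNNAA, a core of C/EBP sites, occurred in none of the 7 windows and in 9.56% of all windows.

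Loss of Cebpa and Cebpb in clone C1 went with lower RNA of 8 of the 9 class I genes. None was higher, and Tap2 did not pass the test. The median log2 fold change of the 9 genes was -1.34, against -0.01 over all genes tested. At an adjusted p under 0.05 (limma on log2(normalized reads + 1)), 37% of all tested genes passed in this comparison, 19.9% lower and 17.1% higher in dKO cells. Ranges of the groups did not overlap for 8 of the 9 genes, and for 45.2% of all tested genes. In bulk samples, fewer cells of one kind and less RNA in each cell cannot be told apart.

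H2-K1 and H2-D1 encode the classical heavy chains that present peptides to CD8 T cells. H2-K1 had 10606, 10898 and 5402 normalized reads in the WTFL libraries of clone C1 and 2259, 2937 and 2452 in its dKO libraries. H2-D1 had 9856, 10702 and 6481 in WTFL cells and 3041, 3904 and 3555 in dKO cells. The lowest WTFL library, replicate 3, was above every dKO library for both genes. H2-K1 fell by 1.75 on the log2 scale (standard error, SE, 0.22, adjusted p = 1.1e-05 in limma), and H2-D1 fell by 1.34 (SE 0.15, adjusted p = 3.8e-06 in limma). Without WTFL replicate 3 the log2 fold changes were -2.08 and -1.56.

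B2m encodes β2-microglobulin, the light chain that all class I heavy chains need for a stable fold. It had 22335, 21022 and 13089 normalized reads in WTFL cells of clone C1 and 4619.5, 3840.0 and 4087 in dKO cells, which gave a log2 value of -2.13 (SE 0.16, adjusted p = 4e-08 in limma) that was -2.38 without WTFL replicate 3. Per kb of exon B2m was the most abundant of the 9 genes in these WTFL cells, with 21878 normalized reads per kb, followed by H2-D1 with 3495, H2-K1 with 3053, Tapbp with 851, Psmb8 with 409, Tap2 with 367, Tap1 with 199, Psmb9 with 107 and Nlrc5 with 42.3.

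Tap1 and Tap2 form the transporter as a heterodimer, and they parted in clone C1. Tap1 had 1499.9, 1339 and 423 normalized reads in WTFL cells and 289.9, 372 and 329 in dKO cells. Tap2, its partner, had 1604, 1577 and 979 in WTFL cells and 1489, 1847 and 1495 in dKO cells. The Tap1 groups did not overlap, with replicate 3 of WTFL close above the dKO libraries, while the Tap2 groups did. Tap1 fell by 1.52 on the log2 scale (SE 0.32, adjusted p = 0.0014 in limma). The log2 fold change of Tap2 was 0.24 (95% confidence interval -0.08 to 0.57, adjusted p = 0.24, limma). Without WTFL replicate 3 these values were -2.10 and 0.01. Tapbp encodes tapasin, which joins the transporter to the class I molecule. It had 4251, 3248 and 1769 normalized reads in WTFL cells and 1222, 1210.4 and 1222 in dKO cells, which gave a log2 value of -1.25 (SE 0.20, adjusted p = 0.00015 in limma), or -1.61 without WTFL replicate 3.

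Psmb8 (LMP7) and Psmb9 (LMP2) replace constitutive catalytic subunits when the immunoproteasome is built. Psmb8 had 1805, 1459 and 880.4 normalized reads in WTFL cells of clone C1 and 541, 695 and 631 in dKO cells. Psmb9 had 509.8, 451 and 216 in WTFL cells and 145, 169.9 and 159 in dKO cells. Both genes were higher in each WTFL library than in any dKO library. Psmb8 fell by 1.09 on the log2 scale (SE 0.20, adjusted p = 0.00041 in limma) and Psmb9 by 1.22 (SE 0.24, adjusted p = 0.00091 in limma). Without WTFL replicate 3 their log2 fold changes were -1.39 and -1.60.

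Nlrc5, the transactivator of class I promoters, showed the largest difference of the 9 genes. It had 545, 410.4 and 123 normalized reads in the WTFL libraries of clone C1 and 3.40, 1.05 and 4.41 in its dKO libraries, with no overlap. Summed over 3 libraries, 983 reads stood against 9, a ratio of 114 after scaling to library size (95% interval 59.96 to 251, counting error only). In limma Nlrc5 fell by 6.37 on the log2 scale (SE 0.57, adjusted p = 3.6e-07), and without WTFL replicate 3 by 7.02. At so few dKO reads the fitted value depends on the pseudocount and ran from -6.90 to -5.30 over the alternatives. Only WTFL libraries reached the 10 normalized reads of the filter for Nlrc5, so its call as lower in dKO cells was close to fixed.

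**Figure D1:**
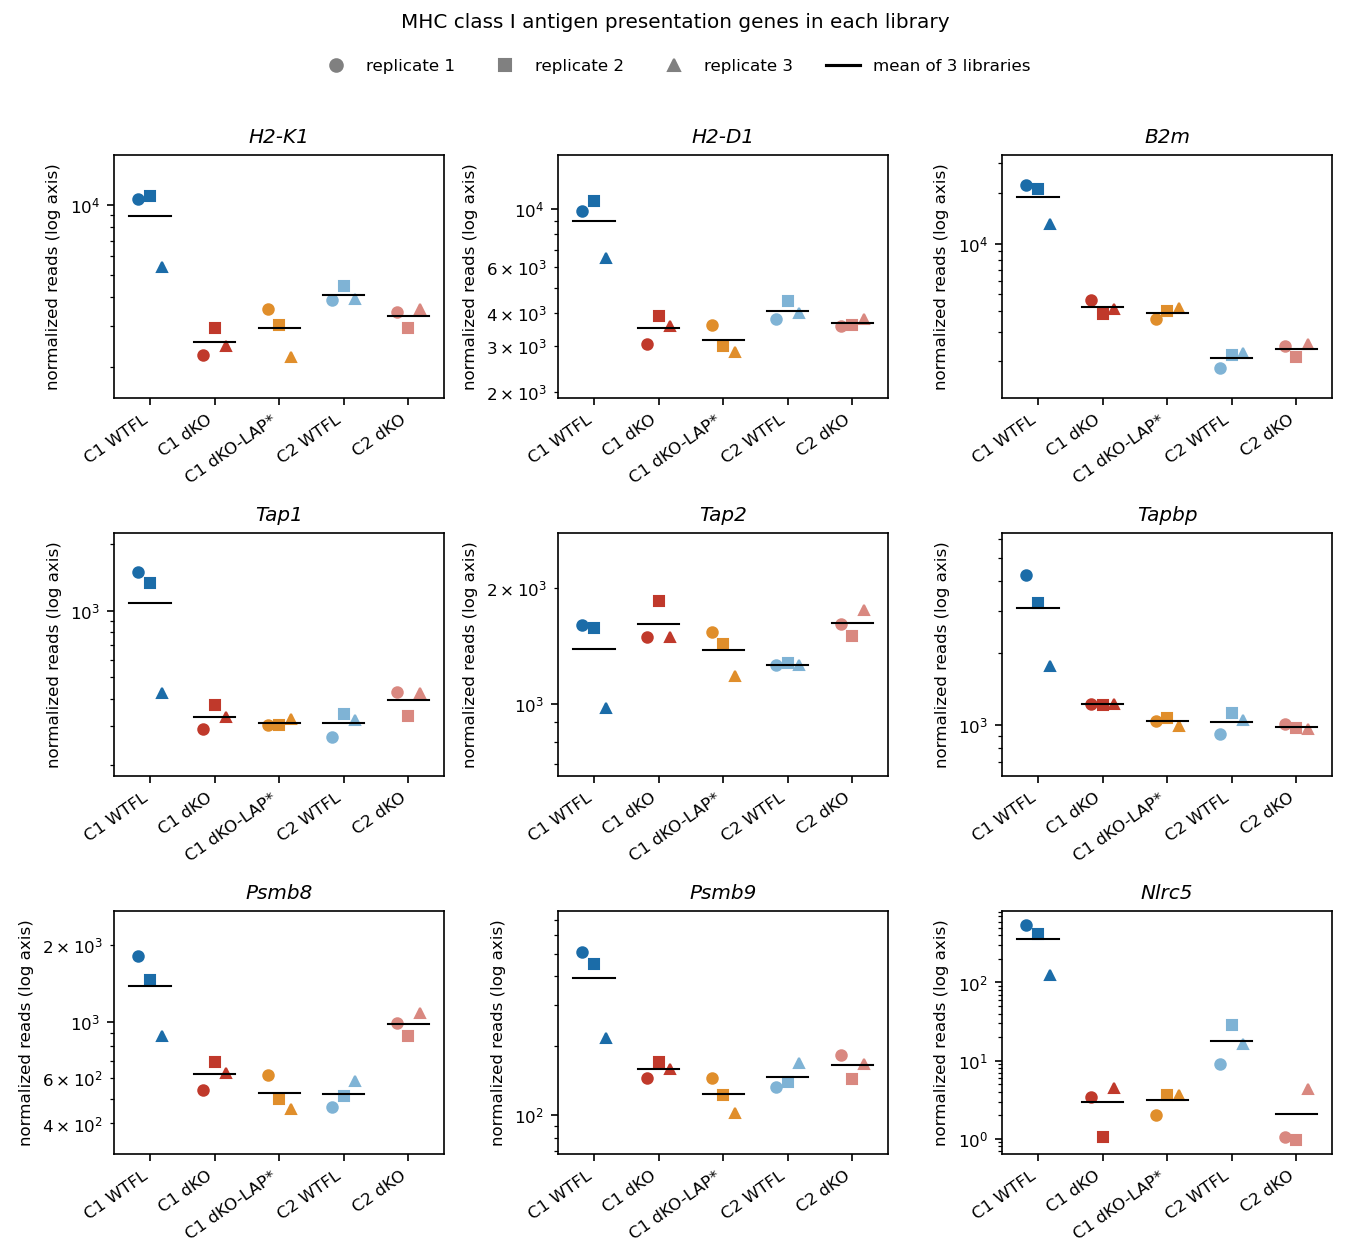
Normalized reads (log axis) of the 9 class I genes in each of the 15 libraries, with 1 panel per gene, colours for the 5 groups, marker shapes for the replicates and a line at each group mean. WTFL cells of clone C1 are highest for every gene except Tap2, and their replicate 3 (triangle) lies below replicates 1 and 2 in all panels, from 5402 against 10606 and 10898 for H2-K1 to 123 against 545 and 410.4 for Nlrc5.

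In clone C2, 2 of the 9 class I genes differed between dKO and WTFL cells. Psmb8 was higher and Nlrc5 lower in dKO cells, and the other 7 genes did not pass the test. The median log2 fold change was 0.16, against -0.03 over all genes tested. In this comparison 37.6% of all tested genes passed, 17.4% higher and 20.1% lower, so 1 gene in each direction among 9 is a share near the background. Ranges of WTFL and dKO cells did not overlap for 4 of the 9 genes (H2-K1, Tap2, Psmb8 and Nlrc5) and for 51.5% of all tested genes.

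H2-K1 had 3894, 4462 and 3926 normalized reads in WTFL cells of clone C2 and 3437, 2940.4 and 3572 in dKO cells, and H2-D1 had 3779, 4433 and 3996 against 3579, 3610.2 and 3793. The H2-K1 groups stood side by side without overlap, and the H2-D1 groups overlapped. Their log2 fold changes were -0.31 (95% confidence interval -0.77 to 0.16, adjusted p = 0.29, limma) and -0.15 (-0.47 to 0.17, adjusted p = 0.46, limma). B2m had 1819, 2184 and 2254 in WTFL cells and 2475, 2115 and 2539.9 in dKO cells, overlapping ranges with a log2 fold change of 0.19 (-0.14 to 0.52, adjusted p = 0.37, limma). Each of these intervals leaves out the value that the same gene had in clone C1.

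Tap1 had 268, 339.7 and 322 normalized reads in WTFL cells of clone C2 and 429, 332 and 425 in dKO cells. Tap2 had 1262, 1279 and 1261 in WTFL cells and 1614, 1503 and 1752 in dKO cells. The Tap2 groups did not overlap, with WTFL cells at 1267 ± 10.4 (SD, n = 3), and those of Tap1 did. The log2 fold changes were 0.35 for Tap1 (95% confidence interval -0.33 to 1.03, adjusted p = 0.42, limma) and 0.35 for Tap2 (0.03 to 0.68, adjusted p = 0.085, limma). Both passed the threshold when WTFL replicate 3 of clone C1, which adds to the shared spread, was left out (adjusted p = 0.034 and 0.011, limma). Tapbp had 915, 1119 and 1047 in WTFL cells and 1009.5, 968 and 963 in dKO cells, a log2 fold change of -0.06 (-0.49 to 0.37, adjusted p = 0.84, limma).

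Psmb8 had 465, 514 and 588 normalized reads in WTFL cells of clone C2 and 987, 883 and 1082 in dKO cells. All dKO libraries were above all WTFL libraries, and Psmb8, part of whose reads could belong to Gm20496, rose by 0.91 on the log2 scale, 1.88-fold (SE 0.20, adjusted p = 0.0018 in limma). Psmb9, its partner subunit, had 132, 139 and 168 in WTFL cells and 183, 143 and 166 in dKO cells, which overlapped (log2 fold change 0.16, 95% confidence interval -0.35 to 0.68, adjusted p = 0.63, limma). Nlrc5 had 8.96, 28.3 and 16.5 normalized reads in WTFL cells and 1.05, 0.97 and 4.29 in dKO cells. Its reads summed to 54 and 6, a ratio of 8.61 (95% interval 3.71 to 24.5, counting error only), and it fell by 2.63 on the log2 scale (SE 0.57, adjusted p = 0.0018 in limma). At so few reads the fitted log2 value ran from -3.21 to -1.63 over the alternatives. Nlrc5 was thus lower in dKO cells of both clones, from WTFL levels that were themselves 19.6-fold apart (95% interval 14.9 to 26.2, 983 against 54 reads). H2-K1 also passed as lower in clone C2 when only the compared groups were fitted (adjusted p = 0.043, limma).

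The difference between dKO and WTFL cells in class I RNA was not the same in the clones. The difference of the log2 fold changes (C2 minus C1) passed the test for 8 of the 9 genes, all above 0, where 29.4% of all tested genes passed, 15.1% above 0 and 14.3% below. B2m differed by 2.32 (adjusted p = 1.8e-06, limma), Psmb8 by 2.01 (adjusted p = 6.7e-05, limma) and Tap1 by 1.87 (adjusted p = 0.0053, limma). H2-K1, H2-D1, Tapbp and Psmb9 differed by 1.19 to 1.45. Nlrc5 differed by 3.74 (adjusted p = 0.0025, limma), though edgeR did not call it (adjusted p = 0.11). From a mean of 17.9 normalized reads in WTFL cells of clone C2, Nlrc5 could not fall there as far as in clone C1. Its difference between the clones cannot be told apart from the gap between the WTFL cells. Tap2 differed by 0.11 (95% confidence interval -0.35 to 0.57, adjusted p = 0.76, limma). Without WTFL replicate 3 of clone C1 the same number, 8 of 9, passed.

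Between the clones, WTFL cells stood further apart than dKO cells did in summed class I RNA. Summed over the 9 genes, WTFL libraries of clone C1 held 53012, 51107 and 29361 normalized reads, and the 12 libraries of the other 4 groups held 12229 to 14977. WTFL cells of clone C2 were lower than WTFL cells of clone C1 for 8 of the 9 genes and higher for none, where 41% of all tested genes passed, 21.3% lower and 19.7% higher, and 50.6% had ranges without overlap. B2m was 8.82-fold lower in WTFL cells of clone C2 (log2 fold change -3.14, SE 0.16, adjusted p = 3.1e-10 in limma), the widest gap after Nlrc5 (log2 fold change -4.14, SE 0.57, adjusted p = 2.5e-05 in limma). These values were -3.38 and -4.78 without WTFL replicate 3 of clone C1. The remaining 6 called genes lay between -1.62 for Tap1 and -1.06 for H2-K1, which became -2.20 and -1.40 without this library. Tap2 was the exception, at -0.09 (95% confidence interval -0.42 to 0.23, adjusted p = 0.67, limma). It passed without WTFL replicate 3 of clone C1, at -0.33 (adjusted p = 0.032, limma). WTFL cells of clone C1 enter this comparison and that of dKO with WTFL cells, so both share 3 libraries.

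Ordered by group mean, WTFL cells of clone C1 came first for 8 of the 9 genes, and behind them some neighbouring groups overlapped. For H2-K1, WTFL cells of clone C2 were next (4094 ± 319, SD, n = 3), apart from dKO cells of clone C2 (3316 ± 332), which overlapped with dKO-LAP* cells (2932 ± 678), and these with dKO cells of clone C1 (2549 ± 349). For B2m the clones separated, with dKO (4182 ± 398) and dKO-LAP* cells of clone C1 (3884 ± 289.6) above dKO (2377 ± 229) and WTFL cells of clone C2 (2086 ± 233). For Psmb8, dKO cells of clone C2 (984 ± 99.9) ranked second and overlapped with WTFL cells of clone C1 through replicate 3, as they did for Tap1. For Tap2 the 5 group means ran from 1267 to 1623, and each group overlapped with the next in order.

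**Figure D2:**
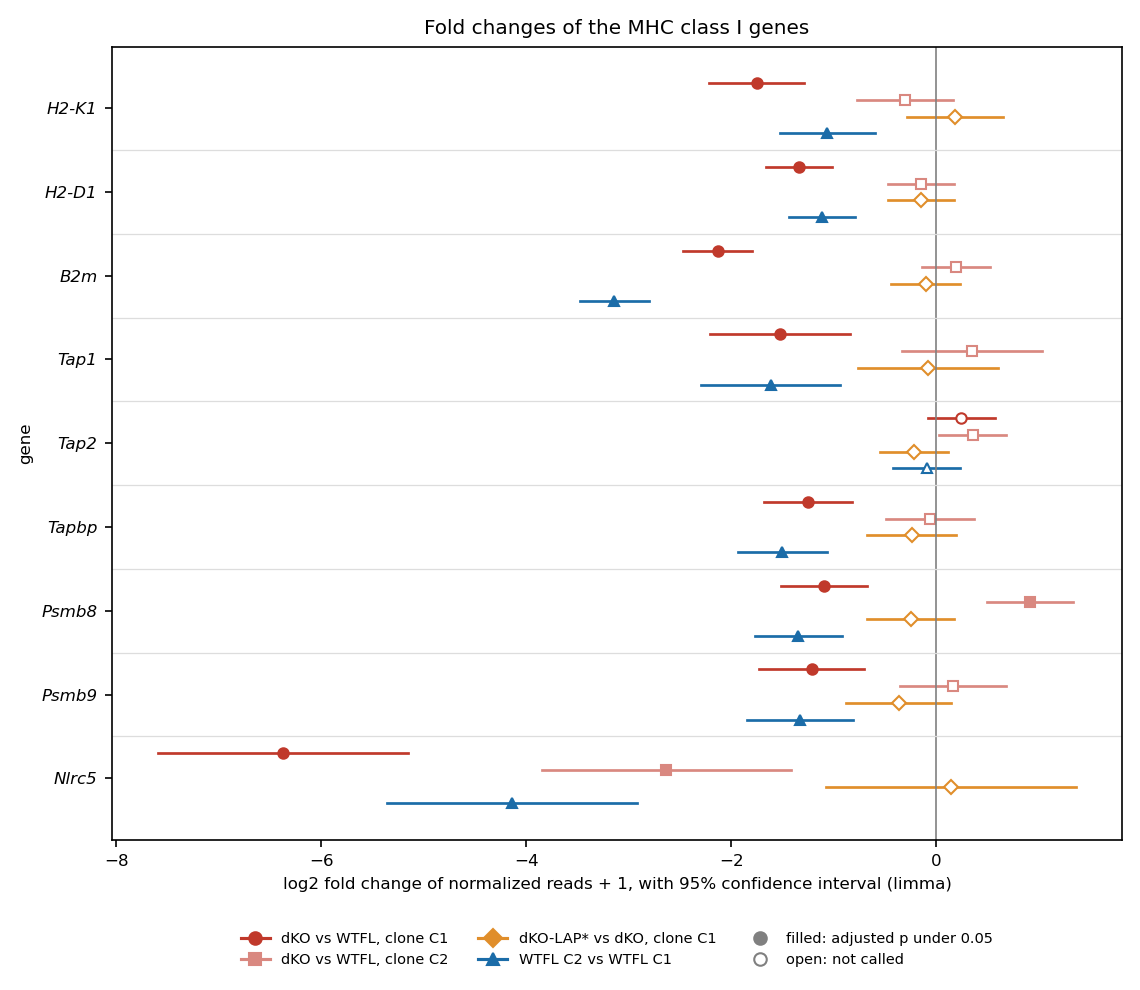
Log2 fold changes with 95% confidence intervals (limma, x axis) of the 9 class I genes (y axis) for 4 comparisons, with filled symbols where the adjusted p was under 0.05. Circles (dKO against WTFL, clone C1) and triangles (WTFL of C2 against WTFL of C1) are filled and left of 0 for 8 genes, squares (clone C2) are filled for Psmb8 at 0.91 and Nlrc5 at -2.63, and no diamond (dKO-LAP* against dKO) is filled.

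Between dKO-LAP* and dKO cells of clone C1, none of the 9 class I genes was called in limma, in edgeR or in DESeq2, and none had an unadjusted p under 0.05 in limma. Of all tested genes 4.46% passed, 1.43% with more RNA in dKO-LAP* cells and 3.03% with less. The median log2 fold change of the 9 genes was -0.15, and the values ran from -0.37 for Psmb9 to 0.18 for H2-K1. H2-K1 had 3550.3, 3038 and 2206 normalized reads in dKO-LAP* cells, B2m had 3563, 3963 and 4127, and Nlrc5 had 2.03, 3.69 and 3.65, all overlapping the dKO libraries of clone C1 given above. For B2m the 95% confidence interval of the log2 fold change was -0.44 to 0.23, for H2-D1 -0.47 to 0.17 and for H2-K1 -0.28 to 0.65, and each leaves out a return to the WTFL level. Nlrc5, at 10 reads in dKO-LAP* and 9 in dKO libraries, had an interval of -1.07 to 1.36. Ranges did not overlap for Tapbp (1037, 1072 and 988 in dKO-LAP* cells) and Psmb9 (144, 123 and 102), with the dKO-LAP* libraries below, and for 24.1% of all tested genes.

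Against WTFL cells of clone C1, dKO-LAP* cells were lower for the same 8 class I genes that dKO cells were, and Tap2 again did not pass (log2 fold change 0.02, 95% confidence interval -0.30 to 0.35, adjusted p = 0.93, limma). Here 32.5% of all tested genes passed, 18.3% lower and 14.2% higher. B2m had a log2 value of -2.24 (adjusted p = 2.6e-08, limma), H2-K1 one of -1.57 (adjusted p = 3.6e-05, limma), and Nlrc5, with 983 against 10 reads, at a ratio of 110 (95% interval 59.4 to 229, counting error only). Leaving out WTFL replicate 3, again 8 of 9 were lower, with log2 values of -2.48 for B2m, -1.90 for H2-K1 and -6.87 for Nlrc5 (-6.23 with it). The WTFL libraries are those of the dKO comparison, so the 2 sets of values are not independent.

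Further genes of the pathway were taken from lists of known components. Of 8 other peptide-loading genes, 5 were lower and none higher in dKO cells of clone C1 (median log2 fold change -0.47), and in clone C2 none was lower and 3 were higher (median 0.14). Psmb10, the last inducible proteasome subunit, measured 777 ± 214 normalized reads (SD, n = 3) in WTFL cells against 339 ± 35.3 in dKO cells for clone C1 (log2 fold change -1.16, adjusted p = 0.00024, limma) and 322 ± 58.5 and 483 ± 112 in clone C2 (0.57, adjusted p = 0.033, limma). Psme2, a subunit of the PA28 activator, fell by 1.07 (log2) in clone C1 (adjusted p = 2.7e-06, limma) and had a log2 fold change of 0.17 in clone C2 (adjusted p = 0.26, limma). Erap1, which trims peptides in the endoplasmic reticulum, fell by 0.76 in clone C1 (adjusted p = 6.3e-05, limma) and rose by 0.35 in clone C2 (adjusted p = 0.021, limma). Calr, the chaperone calreticulin, rose by 0.60 in clone C2 (adjusted p = 0.00043, limma), with 0.16 in clone C1 (adjusted p = 0.28, limma). Psmb10 and Erap1, like Psmb8, thus had called changes of opposite sign in the clones, and their differences between the clones were 1.73 (adjusted p = 0.00025, limma) and 1.11 (adjusted p = 8.3e-05, limma).

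Among 14 other class I or class I-like heavy chains, 12 were tested. In clone C1, 10 were lower and none higher in dKO cells, and in clone C2, 6 were lower and 1 higher (2 higher without WTFL replicate 3 of clone C1). H2-Q4, H2-Q6 and H2-Q7, nonclassical heavy chains of the Q region, were lower in dKO cells of both clones. H2-Q4 had 226, 278 and 67.3 normalized reads in WTFL cells and 0, 2.10 and 0.88 in dKO cells of clone C1, and 91.6, 112 and 133 against 1.05, 1.94 and 3.22 in clone C2 (adjusted p = 1.6e-07 and 1.9e-06, limma). H2-Q7 had 20.1, 48.7 and 13.3 in WTFL cells of clone C1 and 0 in all its dKO libraries, and 72.7, 179 and 179 against 4.18, 2.92 and 3.22 in clone C2. H2-Q6 showed the same arrangement, with 21.4 to 102 in WTFL cells and at most 1.05 in dKO cells of clone C1, and 18.9 to 92.3 against at most 0.97 in clone C2. For these 3 genes the dKO libraries of both clones lay at a few reads, and the difference between the clones did not pass the test for H2-Q4 (1.25, adjusted p = 0.25), H2-Q6 (-0.28, 0.85) or H2-Q7 (-0.30, 0.77, all limma). None of their dKO libraries reached the 10 normalized reads of the filter. They were tested only through other groups, so their place in the counts of lower genes was close to fixed. H2-Q10 was higher in WTFL cells of clone C2 (468 ± 131) than of clone C1 (16.3 ± 14.03), and it was lower in dKO cells of both (adjusted p = 0.0098 in C1 and 1.6e-06 in C2, limma). H2-K1 and H2-D1 share part of their sequence with these genes, so how the counting divided such reads is uncertain.

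Transcription factors known to act on class I promoters, and the receptors upstream of them, were examined in the same way. Of 15 regulators, 7 were lower and none higher in dKO cells of clone C1 in limma (1 higher in edgeR), and 2 were higher and none lower in clone C2. The clone C2 count depended on the fit, with 4 higher and none lower without WTFL replicate 3 of clone C1, 3 higher and 1 lower in edgeR, and 4 higher and 1 lower in DESeq2. Irf9, the DNA-binding subunit of the interferon-activated complex ISGF3, fell by 2.58 (log2) in clone C1 (adjusted p = 3.1e-07, limma), with -0.04 in clone C2 (adjusted p = 0.92, limma). Irf8, a myeloid IRF, fell by 1.58 in clone C1 (adjusted p = 3.7e-06, limma) and had 89.0 ± 14.4 and 68.8 ± 7.46 normalized reads in clone C2, where both genotypes were below those of clone C1. Relb, an NF-κB subunit, fell by 2.82 in clone C1 (adjusted p = 2.4e-06, limma), with -0.76 in clone C2 (adjusted p = 0.059, limma). Of 8 interferon receptor, kinase and feedback genes, 6 were lower and 1 higher in clone C1, and 2 were lower and 2 higher in clone C2. Socs1, a feedback inhibitor of JAK kinases, rose by 1.06 (log2) in clone C2 (adjusted p = 0.00072, limma), with -0.33 in clone C1 (adjusted p = 0.22, limma). Tyk2, a kinase of the type I interferon receptor, fell by 0.60 in clone C1 (adjusted p = 4e-05, limma), with -0.20 in clone C2 (adjusted p = 0.082, limma). Jak2 was higher in dKO cells of both clones, by 0.92 and 0.74 (adjusted p = 4.3e-06 and 4.5e-05, limma), and Ifngr1, a chain of the interferon-γ receptor, was lower in both, by -0.34 and -0.45 (adjusted p = 0.0044 and 0.00051, limma). Between dKO-LAP* and dKO cells no gene of these 4 lists or of the constitutive proteasome was called in limma or edgeR at an adjusted p under 0.05, and DESeq2 called 1 regulator lower. In limma 1 heavy chain was lower without WTFL replicate 3 of clone C1. At an unadjusted p under 0.05 limma gave 1 gene in each list except the constitutive proteasome, with 0.

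Interferon-stimulated genes were also highest in WTFL cells of clone C1. Of 13 such genes, all 13 were lower in dKO than in WTFL cells of clone C1 (median log2 fold change -5.49). In clone C2, 1 was lower (median -0.27), or 2 without WTFL replicate 3 of clone C1. Of the differences between the clones, 12 passed in limma, 11 in DESeq2 and 6 in edgeR. Genes near 0 outside WTFL cells of clone C1, such as Ifit1, passed the filter only through these cells and could not fall in clone C2. For them the difference between the clones cannot be told apart from the gap between the WTFL cells. None of the 13 was called for dKO-LAP* against dKO cells in limma, edgeR or DESeq2, and 3 had an unadjusted p under 0.05 in limma. Their summed level was 22367, 13537 and 3358 normalized reads in the WTFL libraries of clone C1, 288 to 414 in its dKO, 332 to 395 in its dKO-LAP*, 519 to 676 in the WTFL and 234 to 276 in the dKO libraries of clone C2. Ifit1, an antiviral effector, had 1900.0, 799 and 172 in WTFL cells of clone C1 and 0 to 4.06 in every other library. Rtp4 and Rsad2, also interferon-induced, had log2 fold changes of -7.61 and -7.46 in clone C1 and of -0.52 and -0.43, not called, in clone C2. Replicate 3 was the lowest WTFL library of clone C1 for the 9 class I genes and for all 13 interferon-stimulated genes, the latter at a median ratio of 0.141 to the mean of replicates 1 and 2. Gbp3, an interferon-inducible GTPase, was lower in dKO cells of both clones, from 700.0 ± 351 to 34.7 ± 11.4 in clone C1 and from 244 ± 59.3 to 13.5 ± 4.06 in clone C2 (adjusted p = 1.2e-07 and 2.1e-07, limma). The part of an interferon response in the class I result was not tested.

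Cell type markers also moved with the groups. Of the 8 myeloid progenitor markers, 4 were higher and 2 lower in dKO cells of clone C1, and 4 were higher and none lower in clone C2. Their summed level was 28027 to 32368 normalized reads in WTFL, 76452 to 94199 in dKO and 76960.1 to 89307 in dKO-LAP* cells of clone C1, and 18271 to 20806 in WTFL and 39334 to 47459 in dKO cells of clone C2. The median log2 fold change of the 8 markers was 0.16 in clone C1 and 0.27 in clone C2. Mpo and Kit had the largest mean absolute log2 fold changes over both clones (2.69 and 1.68), so the sums do not stand for all 8 markers. Of 9 monocyte and dendritic cell markers 7 were tested, and 6 of them were higher and 1 lower in dKO cells of clone C1, where their summed level was 1445 to 2626 normalized reads against 2948 to 3748 in WTFL cells. Their sums were 41.8 to 92.5 in WTFL and 365 to 500.1 in dKO cells of clone C2, and Siglech was at 0 in all libraries. Mast cell and eosinophil markers were at 0 in WTFL cells of clone C1 and summed to 8387 to 15258 in dKO, 706 to 1669 in dKO-LAP*, 3.15 to 11 in WTFL of clone C2 and 690.2 to 941 in dKO cells of clone C2, while the class I sum was 12229 to 14977 in the last 4 of these groups. The part of a shift in cell kind in the class I result was not tested.

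**Figure D3:**
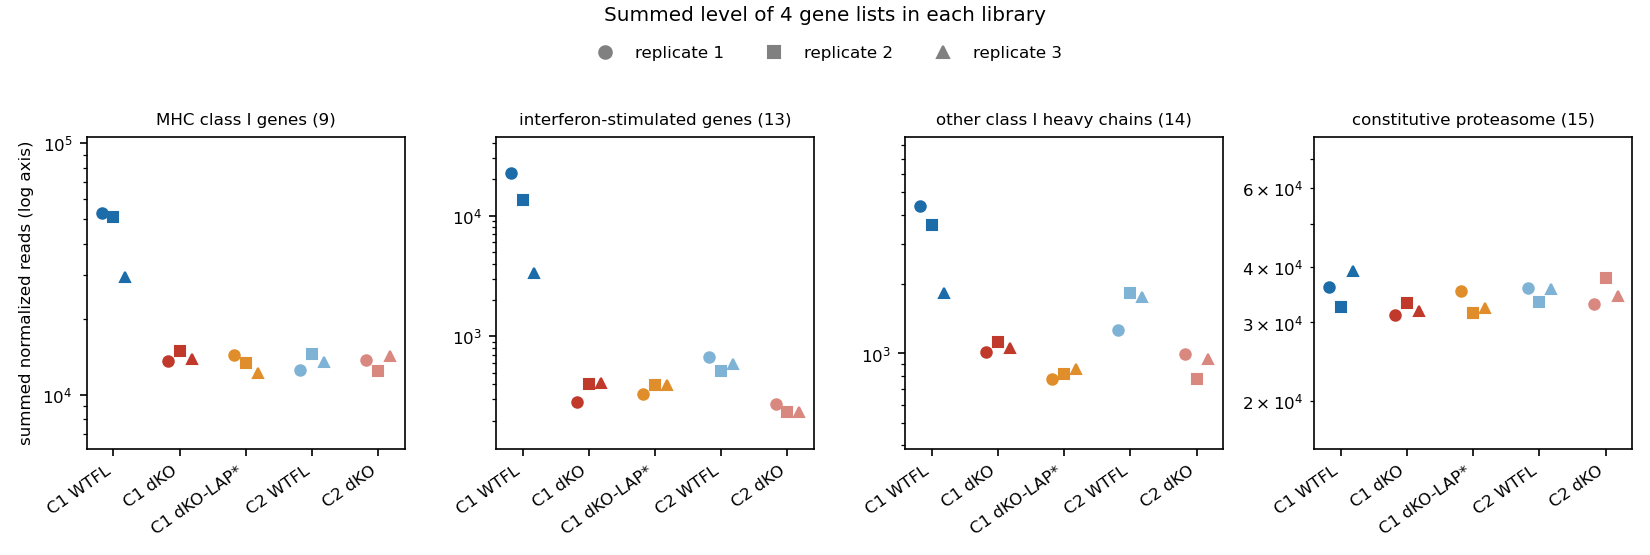
Summed normalized reads (log axis) of 4 gene lists in each of the 15 libraries, coloured by group, with marker shapes for the replicates. The class I sum falls from 53012, 51107 and 29361 in WTFL cells of clone C1 to 12229 to 14977 elsewhere, the interferon-stimulated sum from 22367, 13537 and 3358 to 234 to 676, and the sum of the constitutive proteasome stays between 31239 and 39129.

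The constitutive proteasome served as a comparison within the same pathway. Of 15 listed genes, its α and β subunits and the activator Psme3, 5 were lower and none higher in dKO cells of clone C1, 2 lower without WTFL replicate 3, where 19.9% of all tested genes were lower. The median log2 fold change was -0.15, that of the 9 class I genes being -1.34. In clone C2, 2 of these genes were higher and 2 lower (median -0.08). The largest mean changes of the list, called or not, were those of Psmb6, Psmb4, Psma5 and Psmb5, from -0.46 to 0.52 over both clones. Each inducible subunit was then divided by the constitutive subunit it replaces, per kb of exon, a ratio in which the size factor cancels. With 3 against 3 libraries the exact permutation test cannot go below p = 0.10, and over the 9 tests the adjusted p cannot fall below that value.

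Psmb8 relative to Psmb5 was 0.260, 0.221 and 0.113 in WTFL and 0.106, 0.1195 and 0.123 in dKO cells of clone C1, overlapping through WTFL replicate 3 (exact permutation p = 0.30, two-sided, adjusted 0.34). In clone C2 it was 0.0634, 0.0687 and 0.0807 in WTFL and 0.161, 0.126 and 0.168 in dKO cells, a 2.13-fold higher ratio without overlap (exact permutation p = 0.10, two-sided, adjusted 0.13). Psmb9 relative to Psmb6 was 0.0666 to 0.185 in WTFL and 0.0676 to 0.0728 in dKO cells of clone C1 (exact permutation p = 0.40, adjusted 0.40), and 1.54-fold higher in dKO cells of clone C2 (p = 0.10 by the exact test, adjusted 0.13). On the log2 scale the ratio rose by 0.62 in clone C2. Psmb9 itself had a log2 fold change of 0.16 there (adjusted p = 0.63, limma), so the larger part came from lower Psmb6. Psmb10 relative to Psmb7 was 0.534 to 1.00 in WTFL and 0.375 to 0.438 in dKO cells of clone C1, and 1.64-fold higher in dKO cells of clone C2, both without overlap (p = 0.10 each by the exact test, adjusted 0.13). In dKO-LAP* cells all 3 ratios lay below those of dKO cells of clone C1, at 0.853-fold, 0.773-fold and 0.886-fold, without overlap. Each was at the smallest p that the design allows (p = 0.10 by the exact test, adjusted 0.13). The groups nearly touched for Psmb8 over Psmb5 (highest dKO-LAP* 0.1049, lowest dKO 0.1057) and for Psmb10 over Psmb7 (0.372 and 0.375). Without WTFL replicate 3 of clone C1, the log2 ratios of dKO to WTFL cells in clone C1 moved from -0.69, -0.85 and -0.94 to -1.05, -1.30 and -1.20.

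**Figure D4:**
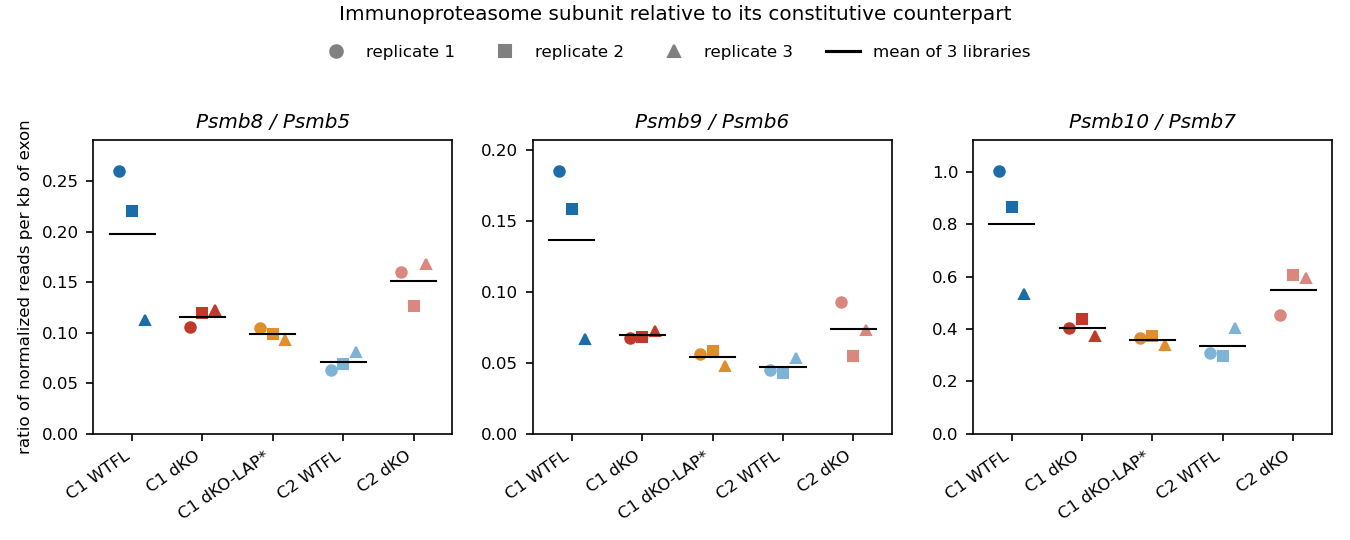
Ratio of each inducible proteasome subunit to the constitutive subunit it replaces (normalized reads per kb of exon, linear axis from 0) in each of the 15 libraries, with a line at the mean of 3 libraries. In clone C2 the dKO libraries lie above the WTFL libraries in all 3 panels, such as 0.126 to 0.168 against 0.0634 to 0.0807 for Psmb8 over Psmb5, while in clone C1 WTFL replicate 3 (triangle) lies near or within the dKO range for Psmb8 and Psmb9.

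As a description over the 15 libraries, Pearson correlations with Nlrc5 on the log2 scale were 0.92 for H2-D1, 0.91 for H2-K1, 0.88 for Tapbp, 0.82 for Psmb9, 0.80 for B2m and Tap1, 0.58 for Psmb8 and -0.27 for Tap2. Over the 12 libraries outside WTFL cells of clone C1 they were 0.43, 0.51, -0.01, -0.16, -0.38, -0.30, -0.50 and -0.66 in the same order. The points share lines and groups, and for all but the heavy chains the positive values rested on WTFL cells of clone C1. The heavy chain values were lower without these cells too. Among the 12 libraries, Nlrc5 was at 0.97 to 4.41 normalized reads outside WTFL cells of clone C2. Whether the remaining heavy chain values rest on those WTFL cells was not tested. The 5 genes other than the 9 with the pattern most like that of Nlrc5 were Enpp4 (0.98), Shisa5, Cxcl10, Mras (0.97 or above) and Rilpl2 (0.969). Cxcl10, a chemokine induced by interferons, had a mean of 532 normalized reads in WTFL cells of clone C1, 40.4 in WTFL cells of clone C2 and 7.32 to 11.3 in the other groups, and for Nlrc5 too WTFL cells of clone C1 came first and those of clone C2 second. For H2-K1 the 5 genes were Helz2 (0.96), Trim25, H2-T22, Rnf213 and Ccl5 (0.94 or above), of which H2-T22 is itself a nonclassical heavy chain.

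**Figure D5:**
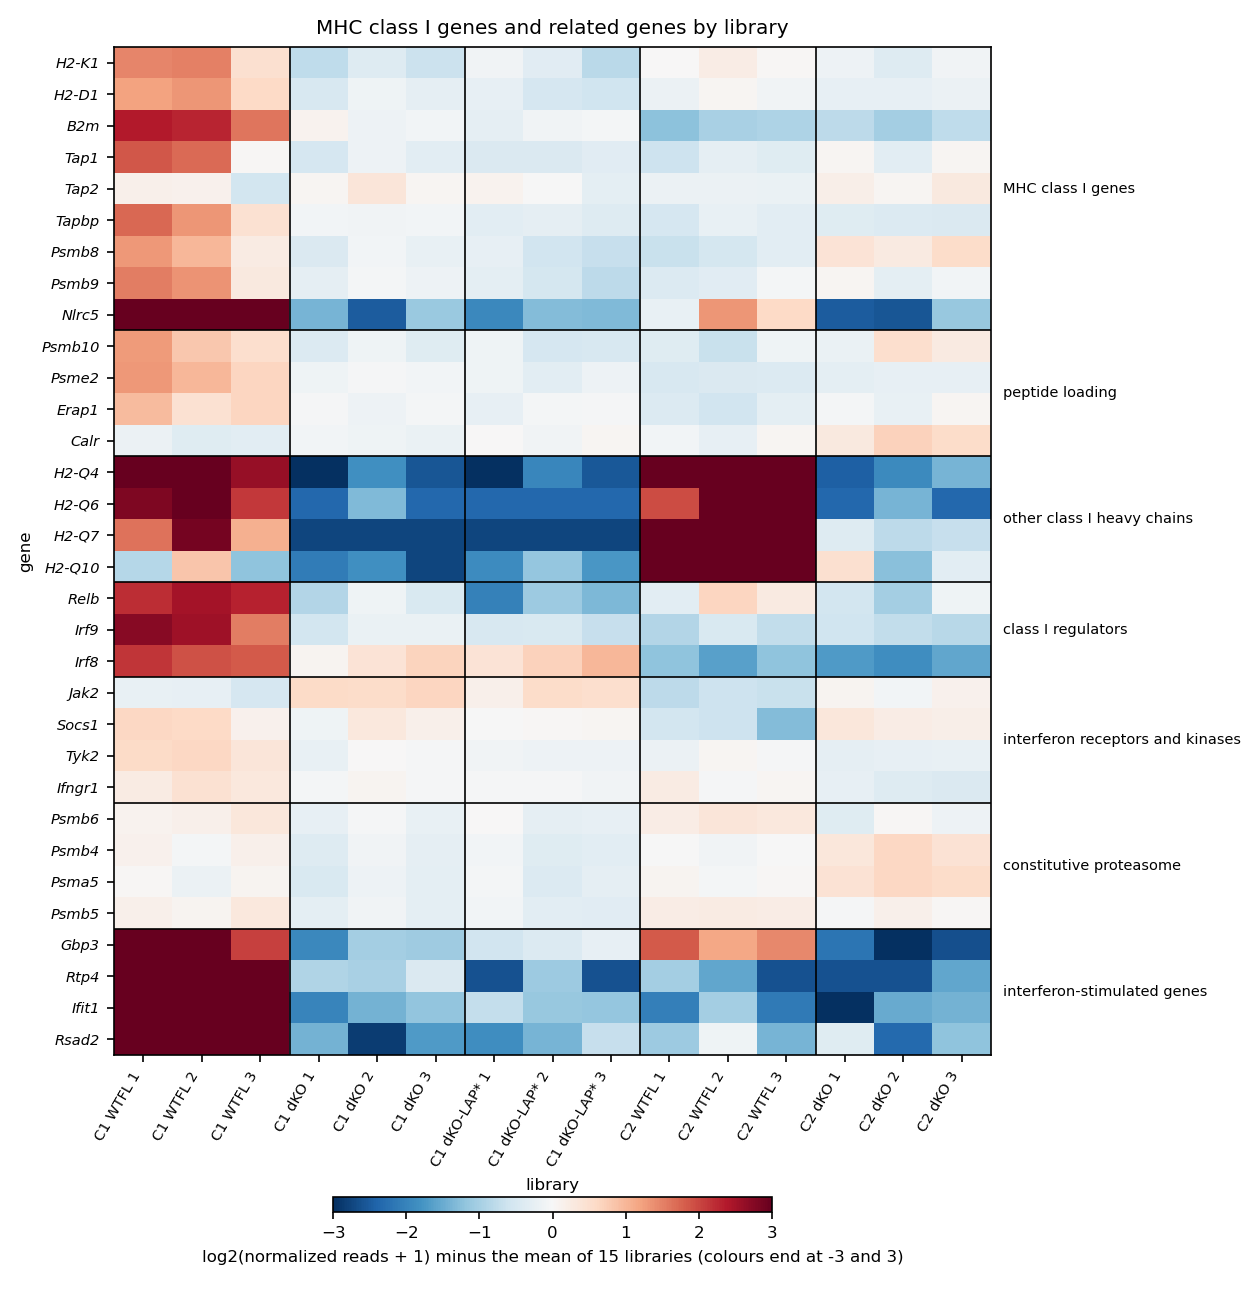
Heatmap of log2(normalized reads + 1) minus the mean of the 15 libraries, with genes in rows (the 9 class I genes and up to 4 genes of each related list) and libraries in columns, red above and blue below the mean, colours ending at -3 and 3. WTFL cells of clone C1 are red for the interferon-stimulated genes and for the class I genes other than Tap2 (Tap1 near white in replicate 3), while H2-Q4, H2-Q6 and H2-Q7 are red in WTFL cells of both clones and blue in most dKO and dKO-LAP* libraries.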

How the data were processed

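The deposited signal is a normalized read count per gene. According to the methods and the submitters' processing notes, the authors prepared stranded mRNA libraries, aligned paired reads of 76 bases to mm10 with STAR 2.5.3a, counted them with HTSeq 0.10.0 and divided by 1 DESeq2 1.26.0 size factor per library. The annotation and strand setting are not given in the sources used here. Of 53384 rows, 5 name no gene (22.4% to 26.2% of reads) and stayed out. The labels matched 15 columns, and 3 further columns were left out.

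limma 3.58.1 (R 4.3.3, trended) fitted log2(normalized reads + 1) using a mean for each group of the 15 libraries. A gene was tested if 3 or more libraries held 10 or more normalized reads (12673 of 24520 with any read), with Benjamini-Hochberg adjustment over all of them and a threshold of 0.05. Whole reads were recovered in 100% of values (within 0.1 read). In WTFL replicate 1 of clone C2 the size factor was so close to 1 that this is no check of recovery. On these reads edgeR 4.0.16 and DESeq2 1.42.0 ran as alternatives. Over the whole table limma called 4686 genes for dKO against WTFL cells in clone C1 and 4760 in clone C2, edgeR 4679 and 4748, and DESeq2 4544 and 4632. Other alternatives were pseudocounts of 0.1 and 5, no filter, quantile and TMM normalization, a fit restricted to the compared groups, a replicate block, and leaving out each of 15 libraries. The scripts were tested on simulated data. Ratios were compared with exact permutation tests (scipy 1.17.1). Intervals of read ratios cover counting error only. The members and lists were chosen with earlier results of these data known. The text names the members, up to 4 genes of each list with the largest mean absolute change over both clones, the genes of a ratio, and the 5 genes most correlated with Nlrc5 and with H2-K1. A regulator that this rule also picks is not reported here.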

Additional observations from a re-analysis of the deposited data

Results flagged for a closer look

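For 8 of the 9 class I genes the difference between dKO and WTFL cells was not the same in the clones by the interaction term in limma. On the log2 scale (clone C2 minus clone C1) the differences were 1.45 for H2-K1, 1.19 for H2-D1, 2.32 for B2m, 1.87 for Tap1, 1.19 for Tapbp, 2.01 for Psmb8, 1.38 for Psmb9 and 3.74 for Nlrc5. Psmb8 was called in opposite directions in the clones, lower in C1 and higher in C2, and Nlrc5 lower in both. Each of these differences contains the WTFL libraries of clone C1, where replicate 3 stood apart. Without it the differences were larger, from 1.41 for H2-D1 to 4.38 for Nlrc5. WTFL cells of clone C2 held a mean of 17.9 normalized reads of Nlrc5, so a fall as large as in clone C1 was not possible there.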

How the results depend on the processing

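The 8 lower class I genes of clone C1 passed under all 9 alternatives and with each of 15 libraries left out. In clone C2 the number of class I genes called higher was 2 and the number called lower 2 with only the groups compared, where H2-K1 (adjusted p = 0.043) and Tap2 (0.0064) joined, and the number called higher was 1 to 3 with single libraries left out, 3 without WTFL replicate 3 of clone C1. In edgeR the difference between the clones for Nlrc5 was 3.80 (adjusted p = 0.11). Signs turned for uncalled values near 0. Tapbp in clone C2 was 0.0017 without WTFL replicate 2 of C2 (range with single libraries left out -0.14 to 0.0017). For Tap2 the difference between the clones was -0.036 under quantile normalization, -0.013 without WTFL replicate 1 and -5.3e-05 without replicate 2 of C1 (range to 0.34), the WTFL clones differed by 0.028 and 0.016 without the same libraries (range from -0.33), and dKO-LAP* against WTFL cells was -0.21 without WTFL replicate 3, -0.055 without dKO-LAP* replicate 1 and -0.0057 without dKO-LAP* replicate 2 (range to 0.15). For dKO-LAP* against dKO cells, Tap1 was 0.0082 (range from -0.17) and Nlrc5 -0.27 (range to 0.43) without dKO replicate 2. The cause of these changes was not tested. Replicate numbers did not pair the samples (no pair of groups had every same-number correlation over 0.1), and with the replicate block 8 class I genes were lower in clone C1, 1 higher and 1 lower in clone C2, and no call of a class I gene changed. Nlrc5 rests on 6 to 10 reads per group outside WTFL cells, which limits its fold changes.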

Other observations

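MHC class II genes, measured as markers of antigen-presenting cells, were low or at 0 in WTFL cells of both clones, while class I RNA was high in those of clone C1 only. H2-Aa and H2-Ab1, the α and β chains of a class II molecule, were at 0 in all WTFL libraries of clone C1 and at 163 ± 50.0 and 72.1 ± 18.4 normalized reads in its dKO libraries. Cd74, the invariant chain that guards the class II groove, rose from 61.2 ± 31.5 to 739 ± 245 (adjusted p = 4.6e-06, limma). In clone C2 the H2-Aa and H2-Ab1 means were at or below 1.55 normalized reads in both genotypes, and Cd74 had 1.31 ± 1.14 in WTFL and 12.7 ± 1.96 in dKO cells.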
